A study of Mus musculus with 17 samples.

Results

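Transcripts of 10 cell surface markers that define or subdivide the haematopoietic stem cell (HSC) gate were followed across 17 RNA sequencing libraries of sorted mouse HSCs. The 10 genes, Kit, Ly6a, Slamf1, Cd48, Procr, Esam, Cd34, Flt3, Thy1 and Cd27, were taken by symbol from the 54838 genes counted. All mice were C57BL/6 Jrj. Age at analysis was 8 to 12 weeks in the young groups and above 18 months in the old groups. Young mice gave 4 control libraries and 5 libraries after CCCP, and old mice gave 3 control libraries and 5 after Mito-Q. Mice of the CCCP group had a single dose (0.3 mg/kg, 1 injection) of this uncoupler of mitochondrial respiration. Mice of the Mito-Q group had 2 mg/kg of this antioxidant, which is targeted to mitochondria, in 5 injections, 1 a day. The labels do not say whether controls were injected with vehicle, when marrow was taken after the last dose, or whether libraries are separate mice, so p-values measure the spread between libraries, which may be technical. Marrow was enriched for c-Kit, and cells without lineage antigens that stained for c-Kit, Sca-1 and CD150 but not for CD48 were sorted. The sort therefore gated on the proteins of Kit, Ly6a, Slamf1 and Cd48, which leaves their level beyond the gate free, and did not use those of the other 6 genes.

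HSCs sit at the top of the blood system, and none of these proteins is unique to them. Kit, the receptor of stem cell factor, and Sca-1, the product of Ly6a, mark early progenitors as a whole. CD150 (Slamf1) and CD48, related receptors of the SLAM family, separate HSCs from multipotent progenitors, which gain CD48. CD34, the receptor tyrosine kinase FLT3 and the TNF receptor family member CD27 are used to follow the steps away from the most dormant HSCs. The protein C receptor (Procr), the adhesion molecule ESAM and the glycoprotein Thy-1 are used to enrich HSCs further.

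Each library held between 5649611 and 8120443 reads in genes. Levels are given as CPM, read counts relative to library size after TMM scaling. The floor of detection was set at 3 reads, or 0.298 to 0.653 CPM, and covers counting error only. Reads assigned to no annotated gene made up 17.8% to 60.2% of each library's reads. The libraries least like the rest were young CCCP 3 (60.2% unassigned, median Spearman correlation 0.682), old control 1 (58.4%, 0.799) and young control 3 (0.803). Young control 3 also had the fewest genes with a read of all libraries, 17067, against 27515 to 29725 in the other young controls. Several results that rest on these 3 least similar libraries are also given without them. RNA came from bulk cells, so fewer cells of a type and less RNA per cell cannot be told apart in these values.

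Kit, Ly6a and Slamf1, the transcripts of the 3 proteins selected for, were present in every library, with at least 2612, 741 and 184 reads. Cd48, the transcript of the protein selected against, had no read in 7 of 17 libraries. Summed CPM of 11 lineage antigen genes ran from 14.9 to 30.6 in young controls, 31.2 to 89.7 with CCCP, 43.9 to 73.3 in old controls and 51.5 to 145 with Mito-Q. Cd8a was at 0 in all old libraries. Of these antigens the NK receptor gene Klrb1c rose between old and young controls (log2 fold change 3.03, SE 0.67, edgeR adjusted p = 0.0155). It averaged 5.87 ± 2.96 CPM in young controls, 48.0 ± 10.7 CPM in old controls and 54.8 ± 29.95 CPM with Mito-Q. Klrb1c was also called higher in old Mito-Q against young controls. Of 10 antigen genes tested for age, 5 had a positive log2 fold change. The median of the 10 was -0.48, against 0.16 over all genes.

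Levels of 3 markers separated old from young mice. Cd34 and Flt3 were lower in all 8 old libraries than in all 9 young ones, control and treated together, and Procr was higher in all 8 old libraries. Over 24523 genes tested, 0.0856% lay lower and 0.326% higher in every old library than in every young one. Upstream sequences of these 3 genes and of Slamf1, the other gene with a called difference, are shown because these are the members that were called in a comparison or did not overlap between ages. Each window holds the 250 bases before the RefSeq start site on GRCm38.p6, 5′ to 3′ on the gene's strand, printed without the bases that GENCODE places inside the gene (150 bases remain for Procr): chr1:194938571-194938818 (plus strand), chr5:147400490-147400739 (minus), chr2:155750967-155751116 (plus) and chr1:171766882-171767126 (plus). Capitals mark matches to any of 8 motifs, searched on both strands.
Cd34: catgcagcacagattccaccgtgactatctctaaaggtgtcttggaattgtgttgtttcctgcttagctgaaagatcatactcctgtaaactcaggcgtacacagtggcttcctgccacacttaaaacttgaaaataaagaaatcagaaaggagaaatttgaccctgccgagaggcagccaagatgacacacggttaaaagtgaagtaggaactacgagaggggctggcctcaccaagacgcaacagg
Flt3: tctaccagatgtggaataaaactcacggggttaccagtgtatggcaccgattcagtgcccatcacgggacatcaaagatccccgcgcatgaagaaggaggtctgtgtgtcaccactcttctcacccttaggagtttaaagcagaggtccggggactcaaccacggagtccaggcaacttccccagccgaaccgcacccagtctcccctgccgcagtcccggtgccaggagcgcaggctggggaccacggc
Procr: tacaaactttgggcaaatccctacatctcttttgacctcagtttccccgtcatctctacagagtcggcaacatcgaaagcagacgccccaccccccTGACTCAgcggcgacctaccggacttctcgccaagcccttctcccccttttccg
Slamf1: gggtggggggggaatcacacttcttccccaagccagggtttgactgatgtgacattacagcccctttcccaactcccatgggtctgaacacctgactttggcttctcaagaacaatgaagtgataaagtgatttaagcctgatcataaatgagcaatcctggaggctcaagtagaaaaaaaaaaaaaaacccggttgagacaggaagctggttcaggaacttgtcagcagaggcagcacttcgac

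Shares of all 32817 RefSeq windows of this length were computed for each motif. GATA factors were searched as AGATAA, found in 9.99% of all windows, and RUNX factors as TGTGGT, found in 14%. For ETS factors the letters were GAGGAAGT and the share was 2.44%. The AP-1 motif TGANTCA occurred in 6.75% and the CRE motif TGACGTCA in 1.55%. The E-box CACGTG occurred in 6.02%, the SP1 motif GGGCGG in 32.7% and the TATA box TATAAA in 12.4%. The only match among the 4 windows was 1 AP-1 motif in Procr, starting 154 bases before the start site. No match in the Cd34, Flt3 and Slamf1 windows says only that these letters are not there. RefSeq windows were matched for 7 of the 10 genes. The full Flt3 and Procr windows had 13 CpG dinucleotides each, Cd34 had 6 and Slamf1 had 3, against a median of 6 over all windows.

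Cd34 encodes a sialomucin (ENSMUSG00000016494, chromosome 1, 194938819 to 194961279 on GRCm38), and 2.03% of its exon bases lie opposite exons of the antisense gene Gm16897. Its level was 407, 312, 341 and 467 CPM in young controls 1 to 4. Old controls 1 to 3 had 119, 158 and 117 CPM. Every old control thus lay below every young control. The mean fell from 382 ± 69.4 to 132 ± 22.8 CPM (SD, n = 4 and n = 3). On the log2 scale edgeR put the change at -1.54 (SE 0.28, adjusted p = 0.00307). Old Mito-Q libraries had 108, 183, 133, 175 and 153 CPM, which overlapped old controls (log2 fold change 0.19, 95% interval -0.35 to 0.73, adjusted p = 0.898) and stayed under all young libraries. Set against young controls, the Mito-Q libraries were lower by a log2 fold of -1.35 (SE 0.24, adjusted p = 0.00973). With CCCP the 5 young libraries had 244, 308, 324, 282 and 273 CPM. Only young CCCP 3 reached into the young control range, yet the change (log2 -0.42) was not called (95% interval -0.91 to 0.07, adjusted p = 0.545). Without young CCCP 3 the log2 change was -0.46 (edgeR adjusted p = 0.536).

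Flt3 encodes the receptor of FLT3 ligand, a growth factor of multipotent and lymphoid progenitors (ENSMUSG00000042817, chromosome 5, 147330741 to 147400489). Young controls had 93.3, 66.03, 119 and 129 CPM. Old controls had 23.9, 6.28 and 1.06 CPM, the last from 6 reads. The groups were far apart, and old controls also spread widely among themselves. edgeR gave Flt3 a log2 change of -3.27 (SE 0.62, adjusted p = 0.00372), which became -4.75 without old control 1. Old Mito-Q libraries were close together at 13.3, 12.1, 10.1, 7.81 and 12.4 CPM. They did not differ detectably from old controls (log2 fold change 0.08, 95% interval -1.01 to 1.17, adjusted p = 0.987; 1.56 and adjusted p = 0.245 without old control 1). Set against young controls they were lower by a log2 fold of -3.19 (SE 0.50, adjusted p = 0.00244). CCCP libraries had 51.0, 77.6, 49.8, 65.6 and 42.6 CPM. Of these, 4 lay under the lowest young control (log2 fold change -0.83, 95% interval -1.80 to 0.14, adjusted p = 0.544).

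**Figure D1:**
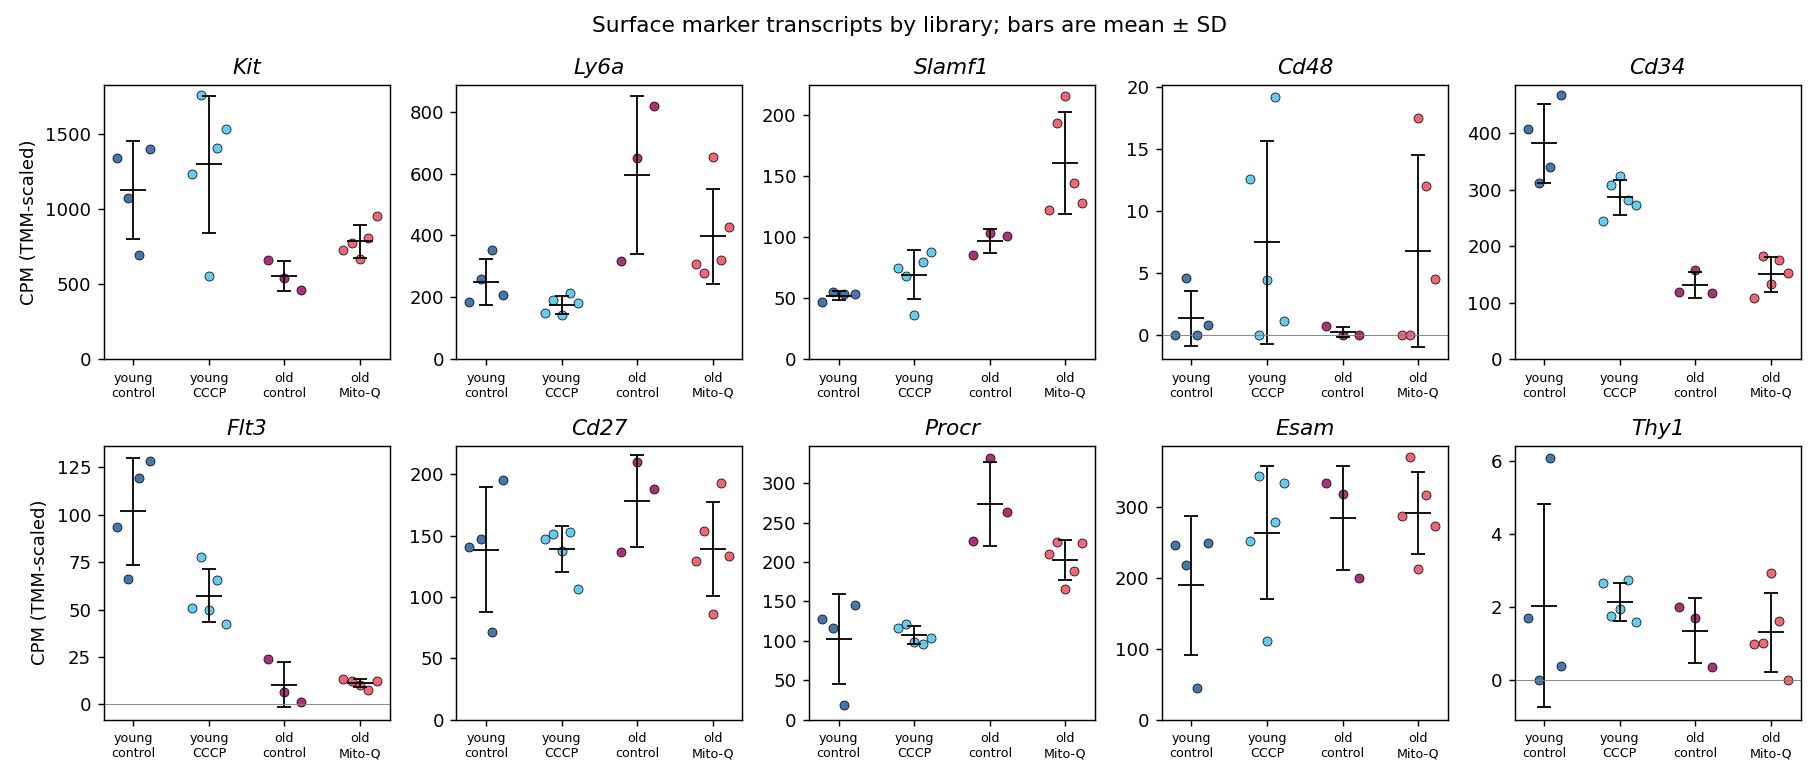
TMM-scaled CPM of each of the 10 marker genes (vertical axes, separate scale per gene) in the 17 libraries, by group, with points for libraries and bars for mean ± SD. Cd34 and Flt3 lay lower, and Procr higher, in the 8 old libraries than in the 9 young ones, while Cd48 and Thy1 lay near 0.

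Slamf1 (ENSMUSG00000015316, chromosome 1, 171767127 to 171801184) encodes CD150, the receptor used to select HSCs. Young controls were tightly grouped at 46.5, 55.0, 53.1 and 53.0 CPM. Old controls had 85.3, 104 and 101 CPM, all above young controls, but the log2 change, 0.90, was not called (95% interval 0.25 to 1.55, edgeR adjusted p = 0.175). Old Mito-Q libraries had 123, 194, 216, 145 and 128 CPM, all above old controls. That difference was not called either (log2 fold change 0.73, 95% interval 0.09 to 1.38, adjusted p = 0.419). Between old Mito-Q and young controls Slamf1 rose from 51.9 ± 3.70 to 161 ± 41.6 CPM (log2 change 1.63, SE 0.29, adjusted p = 0.0103). These groups differ in both age and Mito-Q, whose parts cannot be told apart in this comparison. CCCP libraries had 74.7, 68.4, 35.8, 80.0 and 87.8 CPM, of which 4 lay above and young CCCP 3 below every young control (adjusted p = 0.633). The log2 change with CCCP was 0.42, and 0.58 without young CCCP 3 (edgeR adjusted p = 0.42).

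Cd48 (ENSMUSG00000015355, chromosome 1, 171682009 to 171705258) lies 61.9 kb from Slamf1 and encodes a GPI-anchored ligand of the receptor CD244. It had 0, 4.64, 0 and 0.793 CPM in young controls and 0.714, 0 and 0 CPM in old controls. CCCP libraries had 12.6, 0, 4.47, 19.2 and 1.12 CPM, and Mito-Q libraries 0, 0, 17.5, 12.0 and 4.54 CPM. High and absent values thus occurred side by side within both treated groups, and no comparison was called (edgeR adjusted p = 0.49 to 0.873). A neutrophil list of 13 genes summed to 9776, 783, 14150, 16750 and 5137 CPM in the same CCCP libraries and to 2353, 988, 9772, 5771 and 14490 CPM in the Mito-Q libraries. The treated libraries without a Cd48 read were the 3 with the lowest neutrophil sums among treated libraries. Controls did not keep this order. Young control 2 had 4.64 CPM of Cd48 at a neutrophil sum of 450 CPM. Young control 1, old control 2 and old control 3 had no Cd48 read at 2240, 2406 and 2333 CPM, and young control 3 had none at 447 CPM. The sums do not draw on the same genes in old controls as in treated libraries. The list genes of highest level, S100a8, S100a9 and Ngp, averaged 341, 261 and 98.0 CPM in old controls. Their means were 2533, 1672 and 1716 CPM with CCCP and 1804, 1250 and 1071 CPM with Mito-Q. The part of neutrophils in the Cd48 values was not tested. The ratio of Slamf1 to Cd48 reads, not corrected for length, ran from 4.17 in young CCCP 4 to at least 502 in old Mito-Q 2, where Cd48 was set to the floor of 3 reads.

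Kit (ENSMUSG00000005672, chromosome 5, 75574916 to 75656722) had 1343, 1072, 690 and 1402 CPM in young controls. Old controls had 660, 538 and 462 CPM. All 3 lay under young control 3, the lowest young control, yet the log2 change, -1.03, was not called (95% interval -1.71 to -0.34, edgeR adjusted p = 0.129). It was called without young control 3 and young CCCP 3 together (-1.21, adjusted p = 0.00344), but over single libraries left out the adjusted p ran from 0.0645 (young control 3) to 0.448 (old control 3). Mito-Q libraries had 724, 772, 666, 806 and 953 CPM, above every old control, and 4 of them within the range of young controls (adjusted p = 0.638 and 0.697). CCCP libraries had 1234, 1762, 552, 1404 and 1536 CPM, with only young CCCP 3 under the young controls (adjusted p = 0.858). The log2 change with CCCP was 0.20, and 0.40 without young CCCP 3 (edgeR adjusted p = 0.646).

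Ly6a (ENSMUSG00000075602, chromosome 15, 74994877 to 74998031) encodes Sca-1, a GPI-anchored protein with close paralogues in the same gene cluster, so reads that map to several copies may be missing from its count. Young controls had 185, 258, 352 and 207 CPM. Old controls had 317, 651 and 820 CPM, with old control 1 inside the young range. The log2 change, 1.25, missed the threshold (SE 0.34, edgeR adjusted p = 0.0605). It was called without old control 1 (1.61, adjusted p = 0.00913) and without young control 3 (1.47, 0.0381), and was farther from the threshold without old control 2 (1.18, 0.288) or old control 3 (0.95, 0.439). Mito-Q libraries had 308, 279, 654, 320 and 427 CPM and overlapped both control groups (adjusted p = 0.569 against old and 0.598 against young controls). CCCP libraries had 149, 190, 144, 213 and 183 CPM, a range that overlapped young controls (adjusted p = 0.564).

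Procr (ENSMUSG00000027611, chromosome 2, 155751117 to 155755471) had 128, 116, 18.7 and 146 CPM in young controls, with young control 3 far below the rest. Old controls had 227, 332 and 263 CPM. Procr was thus higher in every old control, but the log2 change, 1.42 (SE 0.40), was not called (edgeR adjusted p = 0.0708). Without young control 3 the estimate was smaller, at 1.07 (SE 0.28), and was called (adjusted p = 0.0436), while over the other single libraries left out the adjusted p ran from 0.05001 (old control 1) to 0.346 (old control 2). Mito-Q libraries had 211, 226, 166, 189 and 224 CPM, all under old controls and over young controls (adjusted p = 0.795 and 0.544). CCCP libraries stayed between 96.2 and 121 CPM (adjusted p = 0.971).

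The ratio of Procr to Cd34 reads compares both within a library and does not depend on scaling between libraries. It is not corrected for length. It was 0.314, 0.373, 0.0549 and 0.312 in young controls and 0.305 to 0.476 with CCCP. In old controls it was 1.90, 2.10 and 2.24, and with Mito-Q it was 1.08 to 1.95. Every old library had a higher ratio than every young one. Mito-Q and old control ratios overlapped only through old Mito-Q 1, at 1.95.

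**Figure D2:**
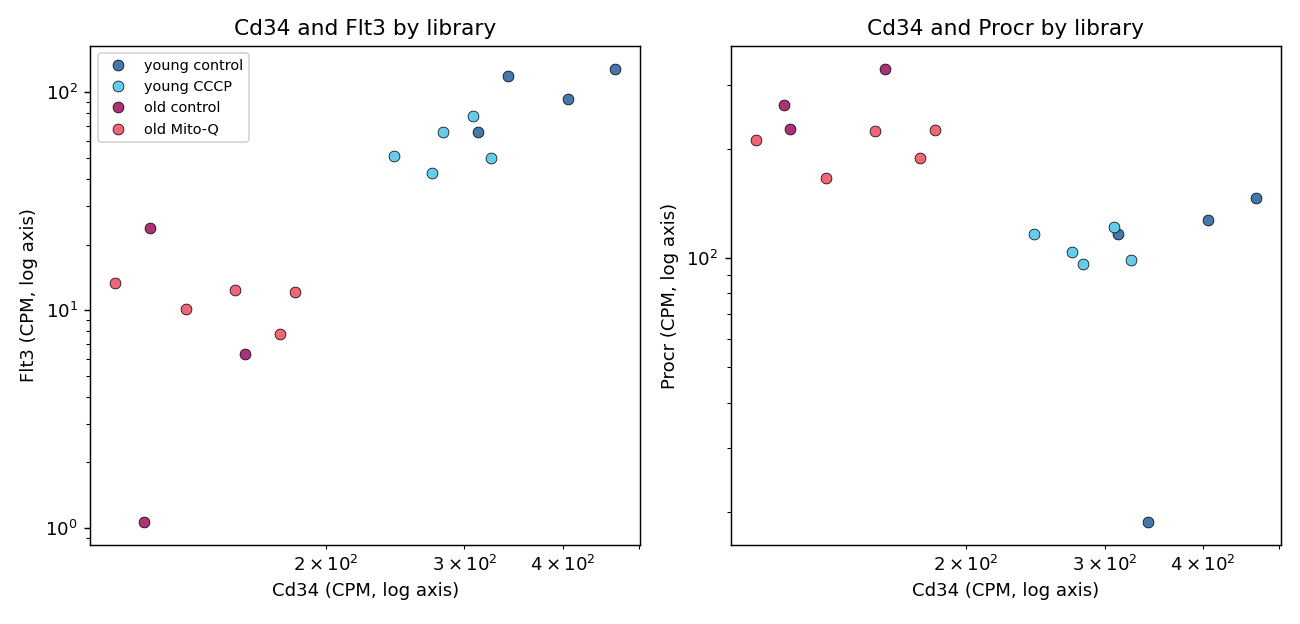
CPM of Flt3 (left) and Procr (right) against Cd34 (both axes logarithmic), 1 point per library, coloured by group. The 8 old libraries lie at 108 to 183 CPM of Cd34 and the 9 young ones at 244 to 467 CPM, with no overlap.

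Esam, Cd27 and Thy1 showed no called difference in any comparison. Esam, an adhesion molecule of HSCs, endothelium and platelets, ranged from 44.4 to 248 CPM in young controls, 111 to 343 CPM with CCCP, 200 to 334 CPM in old controls and 212 to 370 CPM with Mito-Q. Young control 3 had the lowest Esam (44.4 CPM, next 218 CPM), Procr and Cd27 among young controls. Cd27, which binds CD70, averaged 139 ± 51.0 CPM in young controls, 139 ± 19.1 CPM with CCCP, 178 ± 37.8 CPM in old controls and 139 ± 38.6 CPM with Mito-Q. Its 95% intervals spanned -0.31 to 1.04 for age and -0.59 to 0.60 for CCCP (log2). Thy1, a GPI-anchored glycoprotein, lay between 0 and 6.09 CPM with at most 28 reads, so that changes in it could not be resolved at this depth.

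Of the 10 markers, 2 were called between old and young controls, both lower (Cd34 and Flt3). Over all genes 1.69% were called and 1.17% were called lower. An unadjusted p below 0.05 was found for 6 markers, against 14.2% of all genes, and 5 markers did not overlap between the groups, against 11.5% of genes. In old Mito-Q against young controls 3 were called, Slamf1 higher and Cd34 and Flt3 lower. There the share over all genes was 0.143%, with 0.13% higher and 0.0122% lower, which is 32 and 3 genes. Cd34 and Flt3 were 2 of those 3 lower genes. The number of lower genes depended on the fit. It was 20 with no filter on low counts, 15 without young control 3 and young CCCP 3, 67 by DESeq2 and 1 without young control 1. Both comparisons share the young controls and are not independent. Old Mito-Q and young controls differ in both age and treatment, whose parts cannot be told apart there. Between these groups 4 markers did not overlap, against 3.01% of genes.

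No marker was called between old Mito-Q and old controls, where 0.542% of genes were. By unadjusted p below 0.05 there were 2 (Slamf1 and Cd48, against 10% of genes), DESeq2 called 0, and 3 (Kit, Slamf1 and Procr) did not overlap, against 6.07% of genes. No marker was called between young CCCP and young controls, where 0.718% of genes were, none had an unadjusted p below 0.05 (11.2% of genes), DESeq2 called 0, and none was without overlap (4.67% of genes). The median log2 fold change of the markers was -0.10 for age, 0.06 for Mito-Q against old controls, 0.07 for CCCP and 0.31 for old Mito-Q against young controls. Over all genes the medians were 0.16, -0.12, 0.21 and 0.01. Without young control 3, young CCCP 3 and old control 1, the medians for age were 0.24 for the markers and -0.40 over all genes.

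**Figure D3:**
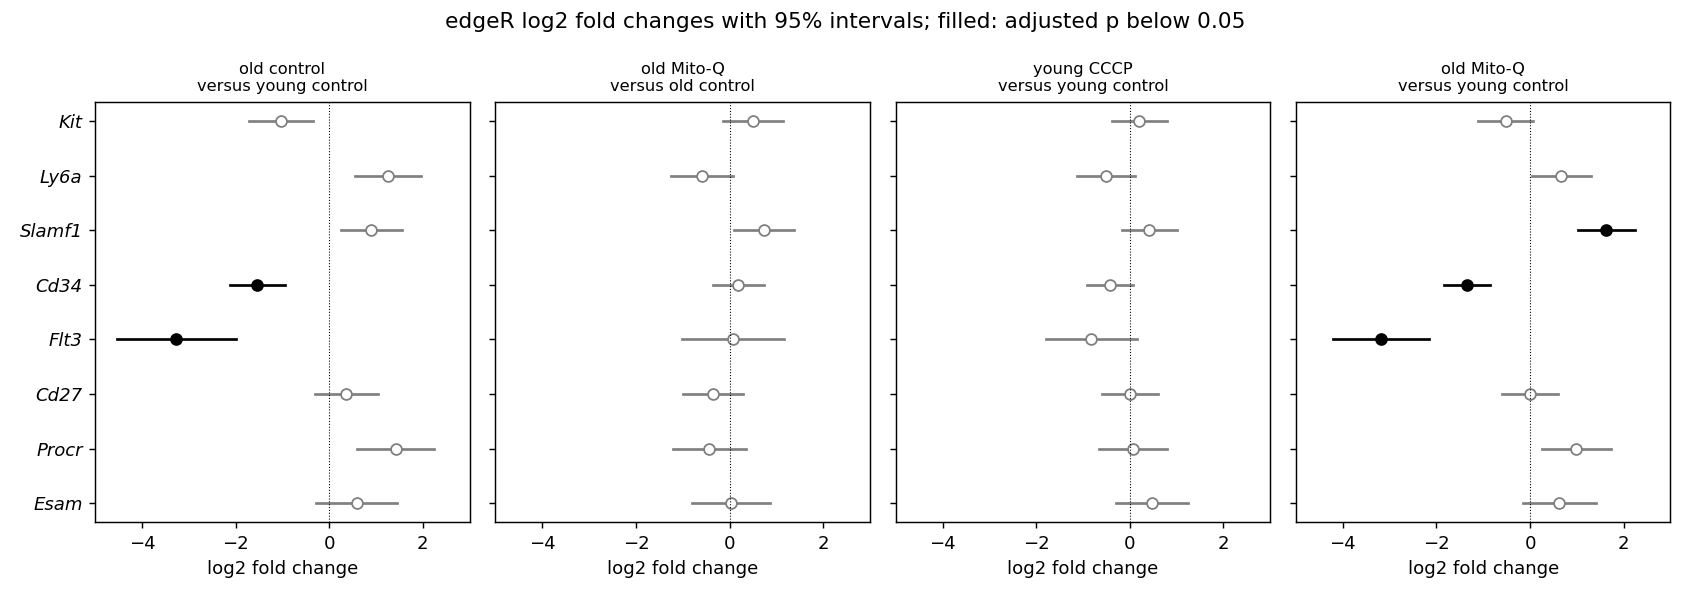
edgeR log2 fold changes (horizontal axis) with 95% intervals for 8 of the 10 markers in the 4 comparisons; Cd48 and Thy1 are left out because libraries at 0 make their fitted values uncertain. Filled points are those with an adjusted p below 0.05, namely Cd34 and Flt3 against young controls in both old groups and Slamf1 in old Mito-Q.

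The count between old and young controls depended on single libraries and on the tool. It was 4 without young control 3 (Ly6a, Procr, Cd34 and Flt3), 1 without old control 3 (Flt3; Cd34 had adjusted p = 0.061) and 0 when only these groups entered the fit (adjusted p = 0.0522 for Cd34 and 0.0756 for Flt3). It was 3 without old control 1. With young control 3, young CCCP 3 and old control 1 all left out, 6 were called (Kit, Ly6a, Slamf1, Procr, Cd34 and Flt3), the same number as by DESeq2. In old Mito-Q against young controls the count was 1 without young control 1 or young control 4 and 2 without young control 2, since Slamf1 had adjusted p = 0.0732, 0.0568 and 0.0521 and Cd34 0.0576 without young control 1 and 0.0647 without young control 4. Flt3 was called in all 17 of the other fits of that comparison.

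Immediate early genes, which cells induce within minutes of handling or stimulation, differed between the same groups. Of 24 such genes 20 were called lower between old and young controls, where 1.69% of all genes were called. With Mito-Q against old controls 21 were called higher (0.542% of genes called), and with CCCP 22 were called lower (0.718%). In each of these comparisons all 24 log2 fold changes had the same direction. The list summed to 9911 to 17710 CPM in young controls, 646 to 1010 CPM with CCCP, 1275 to 2290 CPM in old controls and 18790 to 32300 CPM with Mito-Q. Fos, a subunit of AP-1, averaged 1952 ± 396 CPM in young controls, 15.03 ± 11.7 with CCCP, 51.0 ± 6.98 in old controls and 4772 ± 1205 with Mito-Q. Egr1, a zinc finger factor gene, averaged 1330 ± 354, 41.2 ± 17.5, 120 ± 15.4 and 2078 ± 234 CPM in the same order. Between old Mito-Q and young controls none of the 24 genes was called by edgeR, and Fos had adjusted p = 0.459. The neutrophil list summed to 447 to 2240 CPM in young controls, 783 to 16750 with CCCP, 1108 to 2406 in old controls and 988 to 14490 with Mito-Q. S100a8, which encodes a calcium-binding protein of neutrophils, averaged 171 ± 210, 2533 ± 2024, 341 ± 102 and 1804 ± 1693 CPM. Of the 13 neutrophil genes, only the protease gene Prtn3 was called between old and young controls (log2 fold change 2.23, edgeR adjusted p = 0.00017), where 1.69% of all genes were. There 6 of the 13 had a positive log2 fold change, and their median was -0.02, against 0.16 over all genes. Prtn3 was also the only one called in old Mito-Q against young controls (1.59, 0.0132, against 0.143% of genes). Only the elastase gene Elane was called with CCCP, also higher (adjusted p = 0.0235, against 0.718% of genes). In these 2 comparisons all 13 were positive. A megakaryocyte and platelet list of 12 genes summed to 912 to 1762 CPM in young controls, 885 to 2022 with CCCP, 1573 to 1914 in old controls and 1377 to 2468 with Mito-Q. Of its 11 tested genes Selp, Gp9, a platelet glycoprotein gene (log2 fold change 1.58, adjusted p = 0.0359), and Vwf, the von Willebrand factor gene (1.66, 0.00422), rose between old and young controls. Vwf and Selp rose also in old Mito-Q against young controls, and Vwf rose with CCCP (1.25, 0.0335). An erythroid list of 11 genes summed to 81.1 to 251, 178 to 1445, 111 to 356 and 72.9 to 931 CPM in the same order. Endothelium also expresses Cd34, Esam and Procr. The endothelial list summed to 297 to 424, 320.5 to 563, 262 to 347 and 289.5 to 411 CPM, and none of the 10 was called. Their part in the marker values was not tested.

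**Figure D4:**
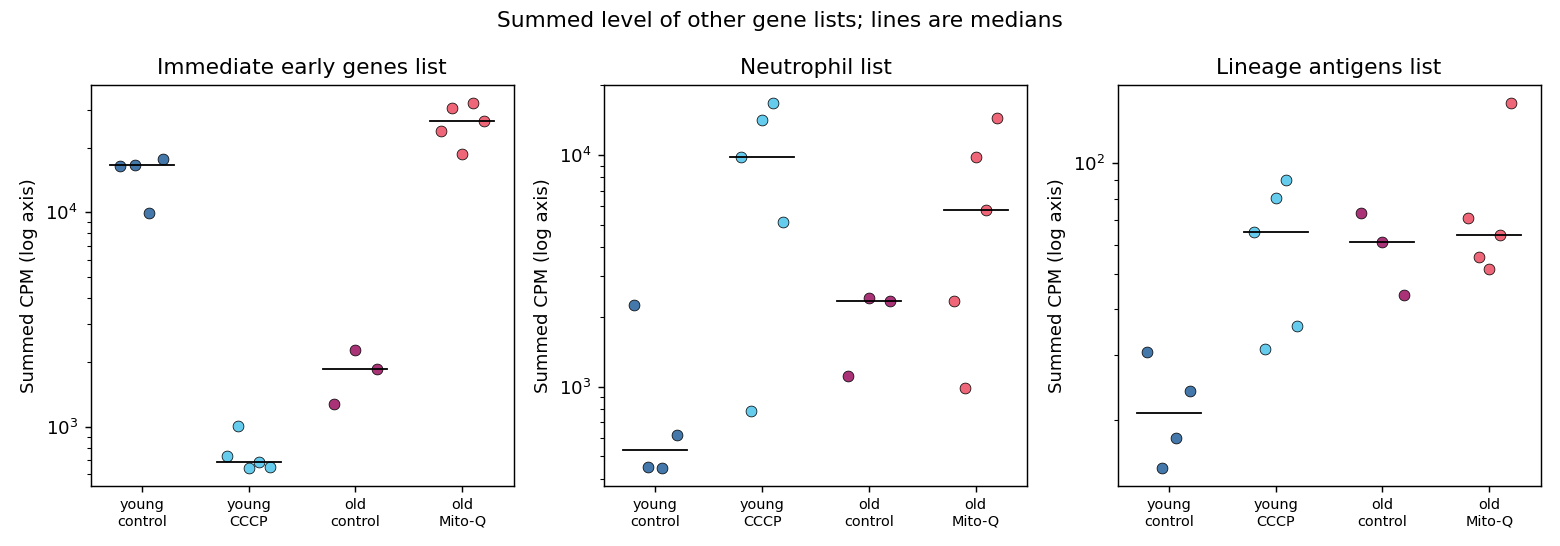
Summed CPM (log axis) of the immediate early, neutrophil and lineage antigen lists in each library, with group medians as lines. Immediate early sums were high in young controls and old Mito-Q (9911 CPM and above) and low in young CCCP and old controls (2290 CPM and below).

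Levels of different genes were compared per kilobase of annotated exons. By their medians over the 17 libraries the order was Ly6a (232 CPM per kb), Esam (95.2), Kit (90.5), Procr (71.8), Cd27 (63.1), Cd34 (33.5), Slamf1 (13.9), Flt3 (6.89), Cd48 (0.667) and Thy1 (0.57). Ly6a was first in 14 libraries and never below the second place. The middle of the order shifted between libraries, with Kit between places 1 and 5, Procr between 2 and 7, and Cd34 between 3 and 7. Esam, Kit, Procr and Cd27 overlapped over the 17 libraries, but the order of some pairs followed age. Kit was above Procr in all 9 young libraries and below it in all 8 old ones, and Kit was above Esam in all 9 young libraries and in 2 of 8 old ones. Procr was above Cd27 in 2 of 9 young and 8 of 8 old libraries. The order of Kit and Procr in old libraries rests on the length used, since with the longest transcript Kit was above Procr in 5 of 8 of them and still in all 9 young ones. With the longest transcript as length Kit (154) passed Esam (146), Cd27 (94.2) passed Procr (90.7), and Thy1 passed Cd48. Ly6a, Cd34, Slamf1 and Flt3 kept their places by median. With that length Ly6a was first in 11 libraries, and Kit was above it in 6 of 9 young and 0 of 8 old ones. Per kilobase of annotated exons Kit was above Ly6a in 3 of 9 young and 0 of 8 old libraries.

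**Figure D5:**
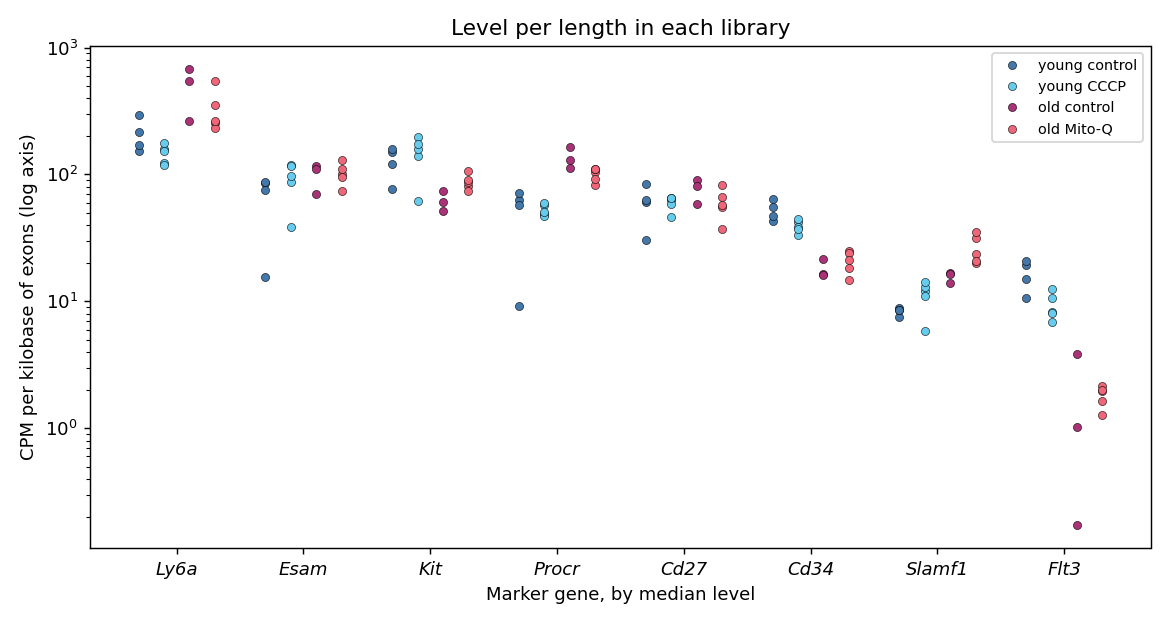
Level per kilobase of annotated exons (log axis) of 8 markers in each library, ordered by median and coloured by group; Cd48 and Thy1, with libraries at 0, are left out. Ly6a leads with a median of 232 CPM per kb, and Flt3 is lowest at 6.89.

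Among the markers, Cd34 and Flt3 had the highest correlation of log2 CPM across the 17 libraries (Pearson r = 0.85, Spearman rho = 0.84), which share the group differences. After subtracting group means r was 0.08. Esam and Procr had r = 0.78, which was 0.33 without young control 3. Kit and Esam had r = 0.33 (0.35 without young control 3), and 0.85 after subtracting group means. Young control 3 and young CCCP 3 were the lowest of their groups in both Kit and Esam. The value after subtracting group means was not computed without these libraries. By the same measure over 10584 genes, the genes most like Cd34 were Hnrnpd (r = 0.93, rho = 0.89), Mmp2 (0.89, 0.91) and Flt3. Those most like Flt3 were Hnrnpd (0.89, 0.83), Satb1 (0.88, 0.78) and Mcmbp (0.88, 0.85). Those most like Slamf1 were Sult1a1 (0.86, 0.88), Clu (0.85, 0.89) and Nrg4 (0.83, 0.85). Hnrnpd, an RNA-binding protein gene, averaged 125 CPM in young controls, 113 with CCCP, 69.3 in old controls and 70.3 with Mito-Q. Sult1a1, a sulfotransferase gene, averaged 72.3, 61.7, 451 and 498 CPM in that order.

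Called genes among relatives, ligands and signalling partners of the markers are set beside the shares called over all genes. These shares were 1.69% between old and young controls and 0.542% between old Mito-Q and old controls. They were 0.718% with CCCP and 0.143% in old Mito-Q against young controls. At such shares a list this short with no called gene does not stand out. Of 8 tested SLAM family genes and adaptors, only Slamf1 was called in any of the 4 comparisons. None of 8 tested Ly6 family genes was called. Ly6e, a further member of the cluster family, averaged 638 ± 92.3 in young controls and 1177 ± 158 in old controls (edgeR adjusted p = 0.0752). None of 22 genes of Kit and Flt3 signalling was called in any comparison. Named by their level were the phosphatase gene Ptpn6, at 242 ± 88.4 CPM in young and 173 ± 29.9 CPM in old controls, and the PI3-kinase subunit gene Pik3r1, at 153 ± 31.5 and 145 ± 37.5 CPM. The median log2 fold change of this list between old and young controls was -0.41, against 0.16 over all genes. Without old control 1 these were -0.63 and -0.35.

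Of 13 tested ligands, relatives and partners, F2r and Selp were called between old and young controls, where 1.69% of all genes were. F2r encodes the thrombin receptor PAR1, which activated protein C bound to the protein C receptor can also cleave. It fell from 386 ± 139 to 61.4 ± 22.6 CPM (log2 fold change -2.65, SE 0.47, edgeR adjusted p = 0.00172), and with CCCP it fell to 113 ± 51.4 CPM (-1.77, SE 0.37, adjusted p = 0.0153). With Mito-Q F2r averaged 144 ± 21.6 CPM. These libraries (120 to 167 CPM) lay above every old control and below every young control, and F2r was not called against either group. Selp, which encodes P-selectin, was in 3 of the lists and averaged 28.1 ± 17.9 CPM in young controls, 253 ± 40.4 in old controls and 273 ± 78.9 with Mito-Q. Of 31 other HSC surface protein genes 3 rose and none fell between old and young controls, namely Selp, the tetraspanin gene Cd63 (log2 fold change 1.48, adjusted p = 0.0146) and Cd38, an NAD-hydrolysing ectoenzyme (2.16, adjusted p = 0.0207). Cd38 rose also in old Mito-Q against young controls (2.58, adjusted p = 0.0117). Of 15 other progenitor surface protein genes none was called in any comparison, and their median log2 fold change for age was -0.72. It was -1.001 without old control 1, against -0.35 over all genes, and -0.20 without young control 1, against 0.20. Among them Spn (CD43) averaged 131 ± 31.5 CPM in young and 232 ± 101 CPM in old controls, and Csf3r, the G-CSF receptor gene, 154 ± 67.1 and 93.7 ± 25.2 CPM.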

How the data were processed

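Sorted HSCs went through a reduced-volume Nextera XT preparation, per the labels' protocols. The submitters' processing notes name Trim Galore, STAR 2.7 and GRCm38. The authors deposited 1 table of raw gene counts for every library. How reads were counted, on which annotation, with which strand setting and with or without duplicates is not given in the sources used here. Whether reads in bases shared with an antisense neighbour were counted for the right gene is therefore not known. For Cd34 these are 2.03% of exon bases, shared with Gm16897, which had 4 to 52 reads against 663 to 3532 for Cd34. The 5 footer entries of unassigned reads were kept apart. GENCODE M21 gave names and positions for 54809 of 54838 genes.

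A single edgeR 4.0.16 model (R 4.3.3) held the 17 libraries, using TMM scaling, the filterByExpr filter with a minimum count of 10, and the robust two-sided quasi-likelihood F-test. Over the 24523 genes tested, which included all 10 markers, a Benjamini-Hochberg adjusted p below 0.05 was called. Library totals ranged from 5649611 to 8120443 reads. Libraries within a group differed well beyond sampling noise (chi-square at least 20.9 per degree of freedom), so none was counted as a duplicate. Log2 CPM for correlations used a prior count of 2. Genes named were the 10 markers, up to 4 called genes of each related list (otherwise its 2 of highest level), Fos and Egr1, genes among the 3 of highest CPM of each cell type list, and the 3 genes most correlated with each called marker, above an average log2 CPM of 2 and without predicted or clone-named models. Cd8a, Gp9, Prtn3 and Elane were named after their values were seen. The members, lists and tests were chosen with earlier results of these data known. The fit was tested on simulated data. Alternatives were other scalings, no filter, DESeq2 1.42.0, a replicate block, a fit of only the compared groups, and leaving out libraries.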

Additional observations from a re-analysis of the deposited data

Results flagged for a closer look

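Of 30 sets of marker values in groups of 4 or 5 libraries, 1 had a library far from the others. Esam in young control 3 was 44.4 CPM, and the next lowest young control had 218 CPM, a gap of 0.851 of the group's range. Chance gives such a gap in about 1 in 20 sets.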

How the results depend on the processing

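Over the alternatives, log2 fold changes of Cd34 and Flt3 between old and young controls kept their direction, from -1.72 to -1.42 and from -4.75 to -2.81. The number of markers called there, 2, became 4 with DESeq2 size factors in edgeR, 4 with no filter on low counts, 4 with the replicate block (Ly6a, Procr, Cd34 and Flt3), 0 with only the compared groups, 5 without young control 3 and young CCCP 3 and 6 by DESeq2, and ran from 1 to 4 leaving out single libraries. Without young control 3, young CCCP 3 and old control 1, an alternative chosen after seeing the data, it was 6, and 1 (Ly6a, -0.92, adjusted p = 0.048) between old Mito-Q and old controls. For old Mito-Q against young controls the count of 3 ran from 1 to 3 leaving out single libraries. The causes were not tested. Same-numbered libraries did not deviate together over all genes (r from -0.11 to 0.12). In no comparison did every library correlate best with its own number (3 of 6, 2 of 6, 2 of 8 and 4 of 8). Noisy pairs could also miss that mark, so these values cannot exclude pairs. The labels do not state that a number marks a shared animal, litter or day, so the numbers were not taken as pairs. The median log2 fold change over all genes was 0.16 for age, -0.35 without old control 1, and for CCCP 0.21, or 0.33 with library totals. The block left 404 genes called between old and young controls against 415 without it.

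Over all genes, the 415 called for age became 186 with only the compared groups, 1271 without young control 3 and young CCCP 3, 1402 by DESeq2, 2520 without the 3 libraries, and 125 to 684 leaving out single libraries. The 133 for Mito-Q against old controls became 543 by DESeq2, 1135 without the 3 libraries and 79 to 142 leaving out single ones. The 176 for CCCP became 324 with no filter, 111 with only the compared groups and 642 by DESeq2. The 35 for old Mito-Q against young controls became 90 with no filter, 68 without young control 3 and young CCCP 3, 118 without the 3, 221 by DESeq2 and 14 to 34 leaving out single libraries.

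Directions turned only for differences that were not called. Between old Mito-Q and old controls Esam (0.04) became -0.05 with DESeq2 size factors and by DESeq2 (-0.051), -0.059 with library totals and -0.10 with the replicate block, and ran from -0.13 to 0.18 leaving out single libraries. Flt3 (0.08) became -0.058, -0.055 and -0.17 with those size factors, by DESeq2 and with library totals, and ran from -0.37 to 1.56. Thy1 (-0.06) became 0.31 without the 3 libraries and ran from -0.60 to 0.28. For CCCP, Procr (0.07) became -0.24 without young control 3 and young CCCP 3 and without the 3 (-0.24), and ran from -0.29 to 0.29. Cd27 became -0.20 in both of these and -0.027 with no filter, and ran from -0.23 to 0.22, and Thy1 ran from -0.34 to 1.57. For old Mito-Q against young controls Cd27 became -0.21 without young control 3 and young CCCP 3, -0.22 without the 3, -0.049 with library totals and -0.00093 with only the compared groups, and ran from -0.21 to 0.22. Thy1 became 0.89 and 0.88 without these libraries and ran from -1.13 to 0.89. For age, Thy1 (-0.57) became 0.93 and 0.57 without them and 0.26 with the replicate block, and ran from -0.98 to 0.93.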
